A study of Mus musculus with 3 samples.

Results

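Parvalbumin interneurons are the fast-spiking inhibitory neurons of the cortex. They release GABA onto the soma and axon of their targets, and they fire at high rates through potassium channels of the Kv3 family that close quickly. They arise, with the somatostatin interneurons, from the medial ganglionic eminence under the transcription factor *Lhx6*, and *Pvalb* codes for the calcium-binding protein that names them. Here they were taken from single nucleus RNA-sequencing of the prefrontal cortex as the nuclei with at least 200 genes, under 10% mitochondrial counts, at least 1 *Pvalb* UMI (unique molecular identifier, 1 counted transcript), at least 1 UMI of the GABA genes *Gad1*, *Gad2* and *Slc32a1* together, at most 1 UMI of *Slc17a7*, at most 1 of *Sst* and none of *Vip*. The nuclei were thus selected on their counts of these 7 genes, which are not results here. There were 151 such nuclei, called Pvalb nuclei below, among 43464 kept nuclei.

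The nuclei came from 3 libraries of male mice of 6 to 8 weeks. The C57BL/6 library pooled 5 mice, and the *Nav1* KO library pooled 4 mice homozygous for a short deletion within exon 1 of *Nav1*, with an early stop codon, made by CRISPR on the C57BL/6J background. The third library was from the inbred strain BTBR T<+> Itpr3<tf>/J. How many animals it held, and whether they were pooled, is not stated in the sources used here. NeuN+ and NeuN- nuclei were sorted and mixed in a set proportion before loading, so a share of all nuclei depends on that mix. The C57BL/6 library held 47 Pvalb nuclei of 14630 kept, the *Nav1* KO library 45 of 14056 and the BTBR library 59 of 14778. With 1 library per strain or genotype there was no replicate, no difference between libraries was tested, and every interval below is a 95% interval that covers counting error only.

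The 47, 45 and 59 Pvalb nuclei held 141442, 175001 and 220945 UMIs in C57BL/6, *Nav1* KO and BTBR. Their median depth was 2831, 3593 and 3184 UMIs per nucleus, against 2074, 2754 and 2510.5 over all kept nuclei of the same libraries. The libraries shared 71 barcodes (C57BL/6 and *Nav1* KO), 66 (C57BL/6 and BTBR) and 61 (*Nav1* KO and BTBR), and 0 of these belonged to a Pvalb nucleus. Levels are given as CPM, the counts of a gene scaled to a total of 1000000 UMIs over all nuclei of a class in a library. A count of 3, the smallest used as a limit, was worth 21.2 CPM in C57BL/6, 17.1 in *Nav1* KO and 13.6 in BTBR. No Pvalb nucleus of C57BL/6, 2 of *Nav1* KO and 3 of BTBR were among the 5% of nuclei with the most UMIs in their library, and doublets were not called.

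The promoter of *Pvalb* is shown because its transcript chose the nuclei, and those of *Cemip* and *Slit2* because each held a TATA box. Both genes were among the 12 genes with the largest ratio of Pvalb to *Sst* nuclei. *Ptpre*, also among the 12, held a TATA box further from a start, at -77, and is not shown. *Pvalb* lies at chr15:78191114-78206400 on the minus strand (GRCm38, GENCODE vM21). Each line is the 250 bases before a RefSeq start (GRCm38.p6), written 5′ to 3′ along the gene, with the letters TATAAA in capitals. The windows are chr15:78206401-78206650 (minus strand), chr7:84086506-84086755 (minus strand) and chr5:47982905-47983154 (plus strand).
Pvalb: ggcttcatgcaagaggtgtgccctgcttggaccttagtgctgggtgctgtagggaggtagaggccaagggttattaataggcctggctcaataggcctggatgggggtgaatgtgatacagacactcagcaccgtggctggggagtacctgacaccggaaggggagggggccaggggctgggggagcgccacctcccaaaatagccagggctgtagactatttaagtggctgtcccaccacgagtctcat
Cemip: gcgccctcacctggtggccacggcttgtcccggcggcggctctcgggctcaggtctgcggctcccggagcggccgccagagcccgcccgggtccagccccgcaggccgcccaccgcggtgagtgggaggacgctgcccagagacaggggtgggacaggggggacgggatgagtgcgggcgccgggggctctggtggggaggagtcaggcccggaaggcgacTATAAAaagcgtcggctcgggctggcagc
Slit2: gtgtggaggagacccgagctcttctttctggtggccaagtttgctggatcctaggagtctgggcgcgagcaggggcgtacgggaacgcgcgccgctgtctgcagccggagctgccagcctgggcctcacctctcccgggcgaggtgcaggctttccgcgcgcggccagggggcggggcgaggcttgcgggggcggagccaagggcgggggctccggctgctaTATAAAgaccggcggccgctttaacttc

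Motifs were searched on both strands of such windows. RefSeq promoters were matched for 9 of those 12 genes and for *Pvalb*, 15 windows in all. The letters TATAAA were in windows of *Cemip* (at -29 from the start), *Slit2* (at -28) and *Ptpre* (at -77), and in 12.4% of all 32851 promoters. The homeobox core TAATTA, which reads the same on both strands, was in 1 window of *Btbd11* at -81 and in 4.84% of all promoters. The MEF2 site (CTA, any 4 bases, then TAG), the ERR site AAGGTCA and the NRF1 site (GCGCA, any base, then GCGC) were in 0 of the 15 windows and in 3.2%, 4.08% and 3.74% of all promoters. The *Pvalb* window shown held none of these letters.

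*Pvalb* itself was sparse. Of the 151 nuclei, 127 had 1 *Pvalb* UMI, 22 had 2 and 2 had 3. These values chose the nuclei and are a description only. In each library, 126, 127 and 142 kept nuclei of C57BL/6, *Nav1* KO and BTBR had a *Pvalb* UMI. A GABA gene was found in 74, 79 and 107 of those, and the limit on *Slc17a7* left 50, 48 and 65. The limit on *Sst* left 47, 45 and 62, and the absence of *Vip* left 47, 45 and 59. A *Pvalb* UMI was found in 0.312% of the C57BL/6 nuclei with at least 2 *Slc17a7* UMIs and no GABA gene (called excitatory below), in 0.362% of those of *Nav1* KO and in 0.275% of those of BTBR, at median depths of 2960, 3740.5 and 3226 UMIs, and in 1 of 137, 0 of 120 and 0 of 101 oligodendrocyte nuclei. Pvalb nuclei made up 2.13%, 2.05% and 2.21% of the nuclei with a GABA gene and at most 1 *Slc17a7* UMI.

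Just inside the limits, the 127 nuclei with 1 *Pvalb* UMI had *Erbb4* at 313 CPM, *Btbd11* at 162 and *Syt2* at 109, and the 24 nuclei with 2 or 3 had 217, 251 and 148. The 38 nuclei with 1 *Slc17a7* UMI had *Erbb4* at 214 CPM, *Btbd11* at 89.9, *Syt2* at 78.7 and *Lhx6* at 11.2. The 21 nuclei outside with exactly 2 had 115, 98.5, 32.8 and 16.4. The 113 Pvalb nuclei with no *Slc17a7* UMI had 339, 220, 134 and 61.2. The 16 nuclei with 1 *Sst* UMI had *Erbb4* at 288 CPM, and the 8 outside with 2 or more had 122. The 86 nuclei with *Pvalb* and no GABA UMI were shallower, at a median of 1860.5 UMIs, with *Erbb4* at 191 CPM and *Syt2* at 90.3. The 3 nuclei left out for *Vip*, all of BTBR, had *Adarb2*, a gene of the interneurons from the caudal eminence, at 869 CPM. The 5961 nuclei that met every other limit and had no *Pvalb* UMI had *Syt2* at 17.2 CPM and *Btbd11* at 27.9.

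The label was checked on genes that the rule did not use. The classes set beside it were *Sst* nuclei (at least 2 *Sst* UMIs, a GABA gene, at most 1 *Slc17a7* UMI and no *Pvalb* or *Vip*; 191, 155 and 222 nuclei in C57BL/6, *Nav1* KO and BTBR) and *Vip* nuclei (at least 1 *Vip* UMI, a GABA gene, at most 1 UMI each of *Slc17a7* and *Sst* and no *Pvalb*; 95, 87 and 168 nuclei). *Lhx6*, one of the 2 given markers outside the rule, was at 28.3, 34.3 and 63.4 CPM in Pvalb nuclei of C57BL/6, *Nav1* KO and BTBR, at 60.3, 60.8 and 74.3 in *Sst* nuclei, and at 0, 0 and 6.34 in *Vip* nuclei. It was at 1.44, 0.35 and 1.01 CPM in excitatory nuclei. *Lhx6* was thus found in both classes of the medial eminence. Its Pvalb levels rest on only 4, 6 and 14 UMIs, in 4, 4 and 13 nuclei of C57BL/6, *Nav1* KO and BTBR. The ratio of Pvalb to *Sst* nuclei for *Lhx6* had an interval that included 1 in each library, which at these counts does not show equal levels. *Kcnmb2*, an auxiliary subunit of calcium-activated potassium channels, was at 49.5, 62.9 and 31.7 CPM in Pvalb nuclei and at 43.1, 45.6 and 37.1 in *Sst* nuclei, and its ratio between them had an interval that included 1 in each library. In *Vip* nuclei *Kcnmb2* was at 52, 11.7 and 29.6 CPM, and the ratio of Pvalb to *Vip* nuclei was 0.951 (0.317 to 2.62) in C57BL/6, 5.39 (1.42 to 30.1) in *Nav1* KO and 1.07 (0.366 to 2.84) in BTBR. Both markers were higher in Pvalb than in excitatory nuclei in each library, neither was separated from *Sst* nuclei, and *Kcnmb2* was not separated from *Vip* nuclei in C57BL/6 or BTBR.

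*Syt2*, the fast calcium sensor of parvalbumin terminals, set the Pvalb nuclei apart. Its level was 127, 131 and 95 CPM (18, 23 and 21 UMIs) in C57BL/6, *Nav1* KO and BTBR, and 8.62, 1.9 and 2.75 CPM in *Sst* nuclei. The ratio was 14.8 (interval 5.28 to 50.9) in C57BL/6, 69.2 (11.2 to 2851) in *Nav1* KO and 34.6 (8.45 to 304) in BTBR, the last 2 against 1 and 2 UMIs. In excitatory nuclei *Syt2* was at 6.4, 3.77 and 7.29 CPM. *Syt2* was higher in Pvalb nuclei than in the other 3 classes in every library, and the intervals of the Pvalb levels overlapped between libraries.

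*Btbd11*, a BTB domain protein, was at 233, 183 and 136 CPM in Pvalb nuclei of C57BL/6, *Nav1* KO and BTBR and at 29.3, 24.7 and 38.5 in *Sst* nuclei, which gave ratios of 7.96 (4.31 to 15.2), 7.41 (3.78 to 15.4) and 3.53 (2.04 to 6.12). *Erbb4*, the neuregulin receptor, was at 361, 240 and 303 CPM against 126, 85.5 and 129, with ratios of 2.87, 2.81 and 2.35. It was also high in *Vip* nuclei, at 278, 179 and 230 CPM. *Acan*, the core protein of the perineuronal net, had only 3, 0 and 4 UMIs, and 1 UMI in the *Sst* nuclei of each library. *Sox6*, a transcription factor of the medial eminence lineage, was at 240, 91.4 and 122 CPM in Pvalb nuclei and at 138, 142 and 154 in *Sst* nuclei, with ratios of 1.74 (1.13 to 2.63), 0.642 (0.349 to 1.11) and 0.793 (0.501 to 1.22). *Tac1*, which codes for substance P, was at 113, 263 and 131 CPM against 138, 62.7 and 111, with ratios of 0.82 (0.448 to 1.42), 4.19 (2.62 to 6.77) and 1.18 (0.743 to 1.82). *Sox6* was thus above the *Sst* level in C57BL/6 and *Tac1* in *Nav1* KO, and the other intervals include 1.

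**Figure D1:**
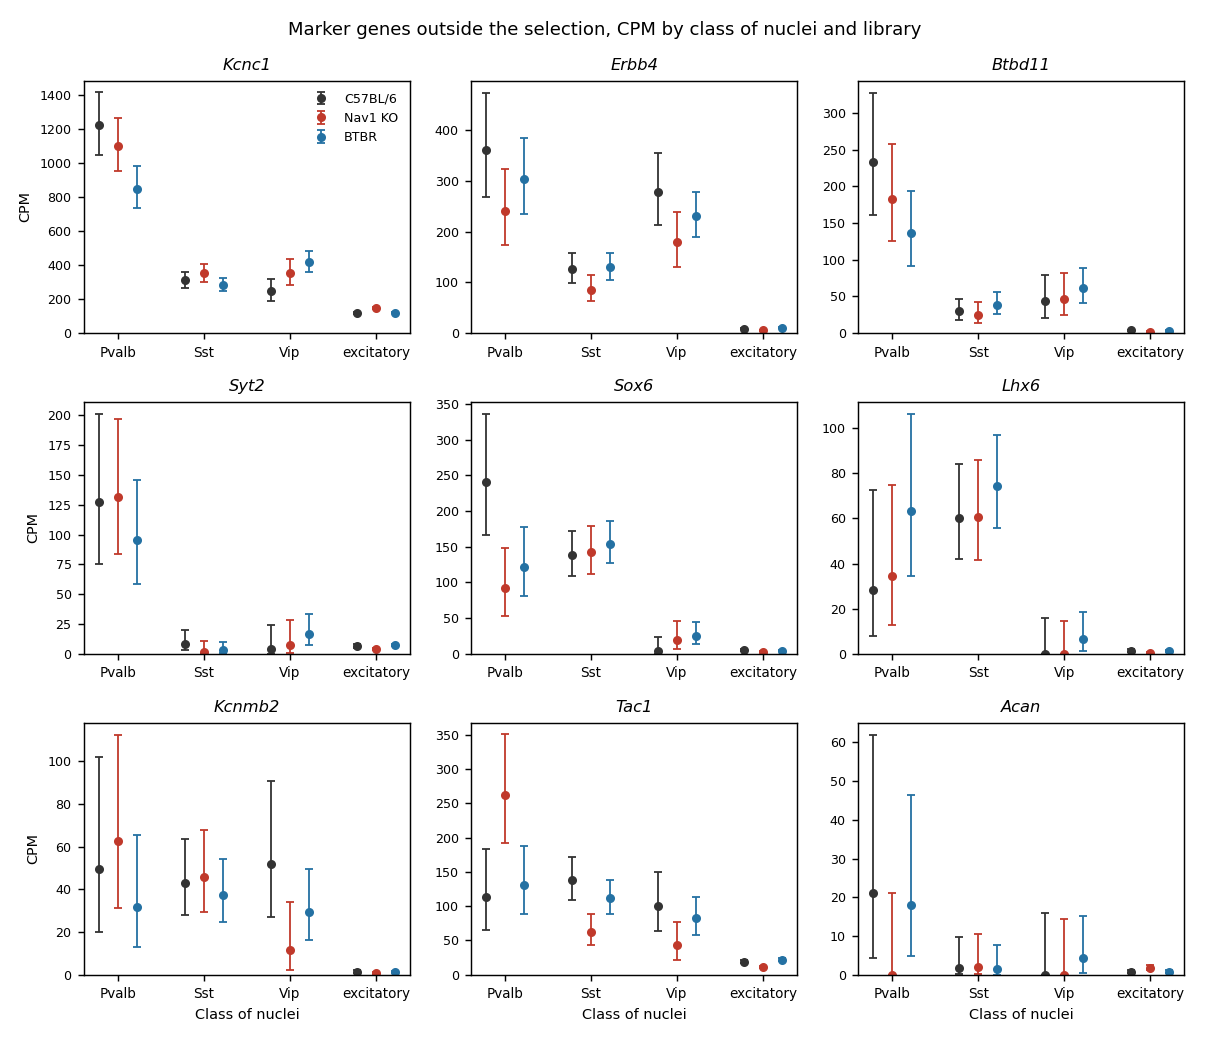
Level of 9 marker genes outside the selection (CPM, y axis) in 4 classes of nuclei (x axis), with 1 point per library (black C57BL/6, red Nav1 KO, blue BTBR) and bars for the exact 95% Poisson interval. Kcnc1, Btbd11 and Syt2 were highest in the Pvalb nuclei of every library, while Lhx6 and Kcnmb2 overlapped between Pvalb and Sst nuclei.

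The same 9 genes were counted in single nuclei. A Pvalb nucleus had a UMI of 3 of them on average in C57BL/6, 3.36 in *Nav1* KO and 2.95 in BTBR. An *Sst* nucleus had 1.71, 1.57 and 1.77, a *Vip* nucleus 1.2, 1.15 and 1.35, and an excitatory nucleus 0.438, 0.489 and 0.474. The median depth of the *Sst* nuclei was 2677, 3192 and 2690.5 UMIs, lower than that of the Pvalb nuclei in each library. At least 3 of the 9 genes were found in 59.6%, 68.9% and 59.3% of Pvalb nuclei in C57BL/6, *Nav1* KO and BTBR. The same held for 25.1%, 19.4% and 26.1% of *Sst* nuclei, 10.5%, 9.2% and 16.1% of *Vip* nuclei and 0.712%, 0.496% and 0.746% of excitatory nuclei. Of the 151 Pvalb nuclei, 12 (7.95%) had none of the 9, at a median of 2306.5 UMIs, and 38 had exactly 4.

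**Figure D2:**
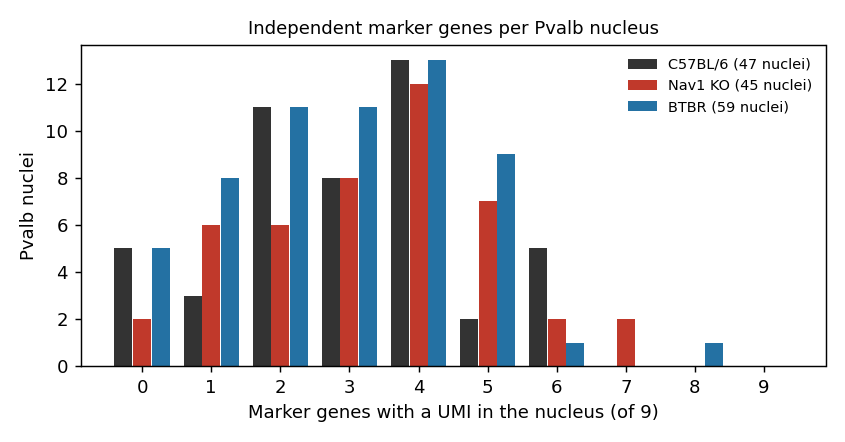
Number of Pvalb nuclei (y axis) by how many of the 9 marker genes outside the selection had a UMI in the nucleus (x axis), with bars for C57BL/6 (47 nuclei), Nav1 KO (45) and BTBR (59). The 12 nuclei at 0 carry none of the 9 genes, and no nucleus carries all 9.

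Markers of other cells were also found in Pvalb nuclei, some lists at about the level of all other kept nuclei of the same library. The summed level of 10 excitatory neuron markers was 707, 691 and 715 CPM in Pvalb nuclei of C57BL/6, *Nav1* KO and BTBR, against 1815, 1781 and 1797 in all other kept nuclei, and the most abundant was *Camk2a*, at 219, 171 and 240 CPM. *Slc17a6* and *Neurod6* were at 0 in C57BL/6. A list of 12 striatal medium spiny neuron genes, led by *Pde10a* at 382, 491 and 434 CPM, summed to 954, 1411 and 1412 CPM, against 1817, 1480 and 1569 in all other kept nuclei. *Adora2a* was at 0 in C57BL/6, and *Drd2* and *Adora2a* in *Nav1* KO. A list of 10 olfactory bulb genes, led by *Meis2* at 148, 331 and 403 CPM, summed to 304, 577 and 788, against 548, 859 and 873, with *Eomes*, *Tbx21*, *Cdhr1*, *Sp8* and *Th* at 0 in C57BL/6, *Tbx21* and *Th* in *Nav1* KO, and *Tbx21*, *Sp8* and *Th* in BTBR.

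The 6 astrocyte markers summed to 346, 314 and 276 CPM in Pvalb nuclei of C57BL/6, *Nav1* KO and BTBR, against 611, 659 and 648 in all other kept nuclei, led by *Slc1a2*, and *Gfap* was at 0 in C57BL/6 and *Nav1* KO. The 6 oligodendrocyte markers summed to 311, 211 and 321, against 363, 309 and 321, led by *Mbp* in BTBR, with *Aspa* at 0 in C57BL/6 and *Mog* in *Nav1* KO. The 6 microglia markers summed to 28.3, 114 and 18.1 CPM, against 37.4, 45.4 and 64.9, with *Cx3cr1* at 0 in all 3 libraries. The 6 endothelial and pericyte markers summed to 7.07, 62.9 and 4.53, against 32, 79.8 and 71.4, with *Rgs5* at 0 in all 3 libraries. The 5 markers of oligodendrocyte precursors summed to 106, 40 and 67.9 CPM, against 56.2, 67.8 and 77.9, led by *Vcan*. The microglia list in *Nav1* KO and the precursor list in C57BL/6 were thus higher in Pvalb nuclei than elsewhere in their library. Of the other interneuron lists, 9 *Sst* markers summed to 205, 331 and 272 CPM (449, 350 and 425 elsewhere), led by *Npy*, 9 *Vip* markers to 120, 91.4 and 195 (198, 190 and 327), led by *Adarb2*, and 7 *Lamp5* markers to 290, 320 and 471 (423, 430 and 565). The part of other cells or free RNA in the differences below was not tested.

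Against *Sst* nuclei, the Pvalb nuclei had more of *Kcnc1*, *Cemip* and *Srrm4* among others, and less of *Npy*, *Crhbp* and *Grin3a*. Genes with at least 20 counts in 1 of the 2 classes in every library were compared, with the 7 genes of the rule left out. Of 4445 genes, 3.67% were past 2-fold in the same direction in all 3 libraries. Of these, 29 (0.652%) were at least 2-fold higher in Pvalb nuclei in all 3 libraries and 134 (3.01%) at least 2-fold lower, and the median ratio over all 4445 was 0.931. The *Sst* side held more counts (580227, 526591 and 727115 UMIs). With both sides at equal depth 20 of 1288 genes were higher and 51 lower. The split turned to 33 higher and 15 lower with at least 2 *Pvalb* UMIs per nucleus, and to 54 higher and 11 lower with at least 1 *Lhx6* UMI, in far fewer nuclei. With 3 pairs of classes the smallest two-sided p a sign test could give is 0.25, so none was made.

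Among genes with at least 20 counts in 1 class in every library, and ranked by the least extreme library, the largest ratio was that of *6330411D24Rik* (chr4:142598441-143074839, minus strand), annotated as a processed transcript without a coding frame. It was at 841, 577 and 864 CPM in Pvalb nuclei of C57BL/6, *Nav1* KO and BTBR and at 51.7, 32.3 and 140 in *Sst* nuclei. The ratios were 16.3 (10.8 to 25.2), 17.9 (10.6 to 31.9) and 6.16 (4.82 to 7.92). The Pvalb levels of the 3 libraries lay far above every *Sst* level, and the smaller ratio of BTBR came with a higher *Sst* level. *Cemip* (chr7:83932857-84086502, minus strand), which codes for a hyaluronan-binding protein, was at 389, 309 and 172 CPM against 24.1, 57 and 28.9, with ratios of 16.1, 5.42 and 5.96.

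*Kcnc1* (chr7:46396497-46438704, plus strand), the Kv3.1 channel of fast-spiking cells, was at 1223, 1103 and 851 CPM in C57BL/6, *Nav1* KO and BTBR, against 310, 351 and 285 in *Sst* nuclei and 247, 354 and 418 in *Vip* nuclei. Its ratio over *Sst* nuclei was 3.94 (3.18 to 4.88), 3.14 (2.55 to 3.86) and 2.99 (2.44 to 3.66). *Srrm4*, a splicing regulator of neurons, was at 771, 577 and 579 CPM against 172, 146 and 164. *Tmem108*, a transmembrane protein, was at 657, 623 and 507 CPM against 122, 116 and 138. *Dock4*, an exchange factor for small GTPases, was at 523, 560 and 566 CPM against 181, 141 and 149. These genes were higher in Pvalb nuclei in each library, with no overlap of the levels.

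The other genes among the 12 largest ratios were *Ptpre*, a receptor tyrosine phosphatase (3.45, 3.33 and 3.38 in C57BL/6, *Nav1* KO and BTBR), *Phlda1* (3.28, 4.21 and 3.06), *Inpp5j*, an inositol phosphatase (5.01, 2.87 and 4.09), *Slit2*, the secreted ligand of Robo receptors (3.52, 4.59 and 2.61), *Btbd11* and *Gm13629*. *Gm13629* is annotated as antisense (chr2:66440880-66546026, plus strand), had ratios of 4.79, 4.1 and 4.47, and is uncertain because the sources used here do not say whether counting used strand. Further genes past 2-fold were *Ntrk3*, the receptor of neurotrophin-3 (2.7, 2.15 and 2.08), *Kcnj3*, an inward rectifier channel (2.3, 2.41 and 2.23), and *Plxna4*, a semaphorin receptor (2.8, 2.44 and 2.1).

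The 12 smallest ratios were led by *Npy*, neuropeptide Y, at 70.7, 160 and 86 CPM in Pvalb nuclei of C57BL/6, *Nav1* KO and BTBR against 2140, 1816 and 1756 in *Sst* nuclei. *Crhbp*, which binds corticotropin-releasing hormone, was at 35.3, 62.9 and 18.1 CPM against 309, 323 and 315. *Grin3a*, an NMDA receptor subunit, was at 56.6, 11.4 and 40.7 CPM against 290, 435 and 303. *Calb1*, the calcium buffer calbindin, was at 28.3, 28.6 and 18.1 CPM against 155, 169 and 121. All 4 were low in every Pvalb pool and high in every *Sst* pool. The others were *Elfn1*, *Fxyd6*, *Synpr*, *Rbp4*, *Man1a*, *Trhde*, *Col25a1* and *Nos1*. Most of these genes had under 20 counts in Pvalb nuclei and were compared through their counts in *Sst* nuclei, so their direction is a description of the *Sst* class and not a check of the Pvalb label.

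**Figure D3:**
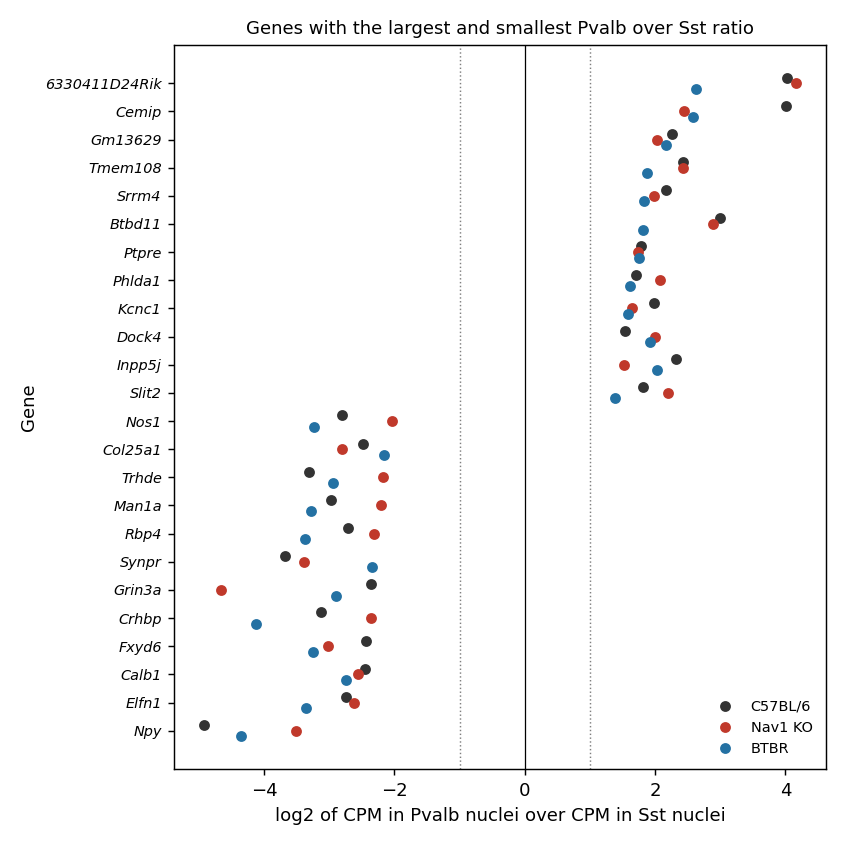
Log2 of the level in Pvalb nuclei over the level in Sst nuclei (x axis) for the 12 genes with the largest and the 12 with the smallest ratio, ranked by the least extreme library (y axis), with 1 point per library. Counts under 3 were set to 3, dotted lines mark 2-fold, and all points lie outside them because the genes were ranked that way.

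Fast-spiking channels, calcium buffers and synaptic genes were then read by list. Of 32 channel genes 24 had enough counts, 2 of them, *Kcnc1* included, were at least 2-fold higher than in *Sst* nuclei in all 3 libraries, and 1, *Kcnd3*, was lower, where 0.652% of all genes compared were higher and 3.01% lower. The median ratio of the 24 was 1.26, against 0.931 over all genes. *Kcna1*, the Kv1.1 channel, was at 488, 474 and 543 CPM in C57BL/6, *Nav1* KO and BTBR against 165, 241 and 272, and its ratios of 2.95, 1.97 and 1.99 fell just short. *Kcnip2*, a subunit of A-type potassium channels, was at 141, 97.1 and 190 CPM against 32.7, 32.3 and 38.5, and it was below 20 counts on both sides in *Nav1* KO.

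Against *Vip* nuclei 1867 genes had enough counts, 3.48% were past 2-fold in the same direction in all 3 libraries, and 26 (1.39%) were at least 2-fold higher in Pvalb nuclei in all 3 libraries and 39 (2.09%) lower. Of 16 channel genes among them, *Kcna1*, *Kcna2*, *Kcnc1*, *Kcnc2* and *Cacna2d2* were higher, with a list median of 1.9. *Cacna2d2*, a calcium channel subunit, was at 502, 486 and 475 CPM in C57BL/6, *Nav1* KO and BTBR against 99.8, 136 and 131 in *Vip* nuclei. *Kcnc2*, the Kv3.2 channel that *Sst* cells also carry, was at 212, 286 and 190 CPM in Pvalb nuclei. It was at 78.1, 66.1 and 69.7 in *Vip* nuclei and 169, 146 and 169 in *Sst* nuclei. With under 20 UMIs in the *Vip* nuclei of C57BL/6 and *Nav1* KO, it was compared there through the Pvalb nuclei. Of the *Vip* markers, *Adarb2* had 14, 12 and 31 UMIs in Pvalb nuclei and 371, 403 and 915 in *Vip* nuclei, and *Crh*, *Cxcl14* and *Prox1* had at most 5 in any Pvalb pool. They were compared through the *Vip* nuclei, where they are high.

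The counts of the lists that follow stand against 0.652% of all 4445 genes higher and 3.01% lower, and a single gene in a list is not a result about the list. Of 23 genes of fast GABA release 16 were compared with *Sst* nuclei, none was at least 2-fold higher in all 3 libraries and *Unc13c*, a vesicle priming factor, was lower, at 56.6, 28.6 and 49.8 CPM against 178, 387 and 294, with 8, 5 and 11 UMIs in Pvalb nuclei, so that it was compared through the *Sst* nuclei. Of 8 calcium buffers 5 were compared, and *Calb1* was lower. Of 24 genes of excitatory input 20 were compared, *Erbb4* was higher, and 2, *Grin3a* included, were lower. Of 15 GABA receptor genes 10 were compared and *Gabrg3* was higher, at 205, 246 and 244 CPM against 94.8, 101 and 83.9.

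In the lineage list 10 of 14 genes were compared, and 1, *Npas1*, was past 2-fold in all 3 libraries. It had 1 UMI in the Pvalb nuclei of each library and 40, 54 and 125 in the *Sst* nuclei, through which alone it was compared. *Satb1*, which is needed for the maturation of these interneurons, was at 269, 143 and 131 CPM in Pvalb nuclei and at 43.4, 23.3 and 25.4 in *Vip* nuclei, at least 2-fold higher in each library. With 10, 6 and 12 UMIs in the *Vip* nuclei, it was compared through the Pvalb nuclei. Of 15 perineuronal net genes 5 were compared and none passed 2-fold in all 3 libraries. *Adamts15*, a protease of proteoglycans that was too sparse for the filter, was at 63.6, 91.4 and 36.2 CPM in Pvalb nuclei and at 3.45, 7.6 and 4.13 in *Sst* nuclei. Of 14 energy genes 12 were compared and none passed. *Ppargc1a*, the coactivator PGC-1α, was at 184, 103 and 181 CPM against 67.2, 64.6 and 53.6, and its ratio of 1.59 in *Nav1* KO was under 2-fold.

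Of 20 genes that divide Pvalb cells into subtypes 8 were compared with *Sst* nuclei, and *Calb1*, *Rbp4* and *Reln* were lower, where 3.01% of all genes were lower. All 3 had under 20 counts in each Pvalb pool and were compared through the *Sst* nuclei. Of 5 neurofilament genes 1 was compared and did not pass. Of 25 neuromodulator and opioid receptor genes 2 were compared, and *Cnr1*, the cannabinoid receptor CB1, was lower, at 91.9, 74.3 and 90.5 CPM in C57BL/6, *Nav1* KO and BTBR against 227, 215 and 265 in *Sst* nuclei and 794, 999 and 896 in *Vip* nuclei. It had 13 UMIs in the Pvalb nuclei of C57BL/6 and of *Nav1* KO, and was compared there through the other class. *Adra1b* had 2, 2 and 3 UMIs and *Htr2c* 2, 5 and 10, and both were compared with *Vip* nuclei through the counts of those nuclei. *Oprd1*, the delta opioid receptor, had 5, 6 and 8 UMIs, and *Oprm1*, the mu receptor, had 0, 2 and 1.

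The comparison of the libraries addressed what loss of *Nav1*, or the BTBR background, was accompanied by in these cells. *Nav1* (chr1:135434580-135607295, minus strand) codes for a neuron navigator, a protein that binds microtubules in growing neurites. The knockout still makes a transcript, so 3′ counts of *Nav1* do not check its label. In Pvalb nuclei *Nav1* was at 573 CPM in C57BL/6 (81 UMIs), 463 in *Nav1* KO (81 UMIs) and 172 in BTBR (38 UMIs). The C57BL/6 and *Nav1* KO values lay close together, and BTBR lay below both. The ratio to C57BL/6 was 0.808 (0.587 to 1.11) in *Nav1* KO and 0.3 (0.199 to 0.447) in BTBR. In all other kept nuclei it was 0.766 and 0.423, so lower *Nav1* counts in BTBR were found across the library.

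Within C57BL/6, *Nav1* was higher in Pvalb than in *Sst* nuclei, by 1.84 (1.39 to 2.4), and than in *Vip* nuclei, by 1.81 (1.3 to 2.52). In *Nav1* KO these ratios were 1.6 (1.21 to 2.11) and 1.63 (1.17 to 2.27), and in BTBR 1.1 (0.739 to 1.6) and 1.18 (0.772 to 1.78), whose intervals include 1. *Nav3*, a related navigator, was at 785, 703 and 584 CPM in Pvalb nuclei of C57BL/6, *Nav1* KO and BTBR and at 420, 349 and 402 in *Sst* nuclei. *Nav2* was at 452, 354 and 385 CPM against 400, 399 and 375. Pvalb nuclei thus stood above *Sst* nuclei in *Nav3*, and their *Nav2* intervals included a ratio of 1 in each library. None of the 3 navigators passed 2-fold against *Sst* nuclei in all 3 libraries.

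**Figure D4:**
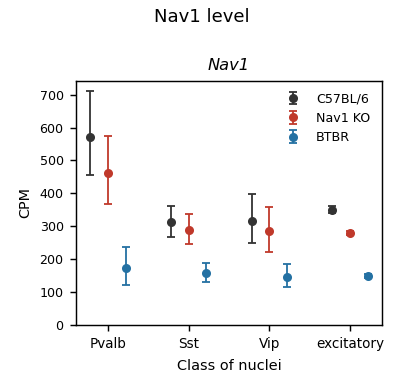
Nav1 level (CPM, y axis) in Pvalb, Sst, Vip and excitatory nuclei (x axis) of the 3 libraries, with exact 95% Poisson intervals. The Pvalb nuclei of C57BL/6 and Nav1 KO, at 573 and 463 CPM, lie above the other classes of their library, and the interval of those of BTBR, at 172, overlaps the intervals of the other 3 classes.

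The intervals of the shares of Pvalb nuclei overlapped between the libraries. The shares were 0.321% of kept nuclei in C57BL/6 (0.236 to 0.427), 0.32% in *Nav1* KO (0.234 to 0.428) and 0.399% in BTBR (0.304 to 0.515). The ratio to C57BL/6 was 0.997 (0.647 to 1.53) in *Nav1* KO and 1.24 (0.833 to 1.86) in BTBR. Among nuclei with a GABA gene the ratios were 0.966 (0.628 to 1.49) and 1.04 (0.697 to 1.56), and there were 0.246, 0.29 and 0.266 Pvalb nuclei per *Sst* nucleus in C57BL/6, *Nav1* KO and BTBR. Differences of up to about these bounds were not detectable at this number of nuclei. *Vip* nuclei were 1.75 times (1.35 to 2.28) the C57BL/6 share in BTBR.

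Since the libraries differed in depth, the rule was also applied to 1000 UMIs drawn at random from every nucleus. The 2394, 1249 and 2096 nuclei of C57BL/6, *Nav1* KO and BTBR with fewer UMIs did not enter. Then 19 (0.155%), 8 (0.0625%) and 15 (0.118%) nuclei met the rule, and the *Nav1* KO ratio was 0.402 (0.152 to 0.962). A second random draw gave 13, 14 and 15 nuclei and a ratio of 1.03, and the third draw gave 15, 11 and 17 and a ratio of 0.701. The *Nav1* KO share at 1000 UMIs thus moved with the draw.

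**Figure D5:**
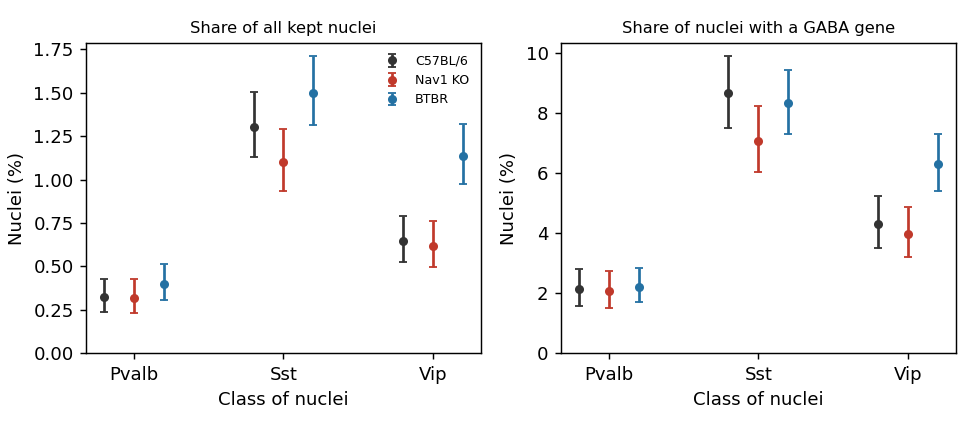
Share (percent, y axis) of Pvalb, Sst and Vip nuclei (x axis) among all kept nuclei (left) and among nuclei with a GABA gene (right) in the 3 libraries, with exact 95% Clopper-Pearson intervals. The Pvalb intervals of the 3 libraries overlap, and the Vip share of BTBR lies above that of C57BL/6.

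In *Nav1* KO vs C57BL/6 Pvalb nuclei, 1520 genes had at least 20 counts in 1 library, and 9.28% of them were past 2-fold. Of the 1520, 66 (4.34%) were at least 2-fold higher and 75 (4.93%) lower in *Nav1* KO, with a median ratio of 0.962. With both pools at equal depth 43 of 1309 genes were higher and 92 lower, so the split between directions moved with depth. The interval of the ratio excluded 1 in 233 of the 1520 genes. In all other kept nuclei 11 of the 1520 genes were past 2-fold. Of the 141 genes past 2-fold in Pvalb nuclei, 8 were so in the same direction there, and 126 lay on the same side of 1. The share on the same side over all 1520 genes was not computed, so the 126 cannot be read as agreement.

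The 8 largest ratios included those of *Apod*, *Tmx2*, *Atxn7l3b*, *Ralyl*, *Ptgds*, *Tmed2* and *Glt8d1*. *Apod*, the lipid carrier apolipoprotein D, had 24 UMIs vs 1, and 12 of the 24 were in 1 nucleus. *Ptgds*, prostaglandin D synthase, had 124 vs 21 UMIs, and 71 of the 124 were in 1 nucleus. *Apod* and *Ptgds* were also higher in all other *Nav1* KO nuclei, by 3.6 and 3.79.

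The 8 smallest ratios were those of *Pitpnm1*, *Nox1*, *Fryl*, *Cntnap2*, *Braf*, *Ccnt1*, *Cdc42bpa* and *Cdh7*. *Cntnap2*, an adhesion protein that clusters potassium channels along the axon, was at 74.3 CPM vs 240 in C57BL/6, a ratio of 0.309 (0.15 to 0.601), and at 0.786 in all other kept nuclei. *Cdc42bpa*, a kinase of the cytoskeleton, was at 126 vs 382 CPM, a ratio of 0.329 (0.191 to 0.55). *Braf* was at 57.1 vs 177 CPM. In the excitatory input list 3 of 16 genes, *Cntnap2*, *Cntnap4* and *Grip1*, were lower by at least 2-fold and none was higher, where 4.93% of all genes compared were lower and 4.34% higher. Genes with under 20 counts in 1 of the 2 libraries, as for these 3, *Sox6* and *Braf* in *Nav1* KO, were compared through the library where they are high, so their direction was open to 1 side only and is given as a description. *Sox6* was lower too, at 91.4 vs 240 CPM (0.38, 0.196 to 0.708), though in the 4 nuclei of each library with an *Lhx6* UMI it had 1 UMI in *Nav1* KO and 0 in C57BL/6. In BTBR *Sox6* was also below C57BL/6, at 122 CPM. Both comparisons share the C57BL/6 pool, so a high *Sox6* value there cannot be told apart from a lower one in *Nav1* KO.

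Of the 9 marker genes outside the selection, *Sox6* was lower in *Nav1* KO, as given above, and *Tac1* higher, with intervals that exclude 1. *Btbd11* was at 183 vs 233 CPM and *Lhx6* at 34.3 vs 28.3, with overlapping intervals of the levels. In 3 others of the 9, hallmark genes of fast-spiking cells, no difference between the 2 libraries was detectable at this depth. *Kcnc1* had a ratio of 0.902 (0.731 to 1.11), *Syt2* of 1.03 (0.533 to 2.03) and *Erbb4* of 0.666 (0.432 to 1.02), and all 3 intervals include 1. Of 19 channel genes 1 was at least 2-fold higher in *Nav1* KO and none lower, a share near the 4.34% and 4.93% over all genes. None of 10 genes of fast GABA release and none of 7 GABA receptor genes passed 2-fold. *Tac1* was higher, at 263 vs 113 CPM (2.32, 1.29 to 4.4). *Tac1* is also on the striatal list, of which 2 of 3 genes compared were at least 2-fold higher. That list summed to 1411 vs 954 CPM in Pvalb nuclei and to 1480 vs 1817 in all other kept nuclei. The olfactory bulb and striatal marker *Meis2* was higher as well, by 2.23 (1.33 to 3.87), against 1.33 in all other kept nuclei.

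In BTBR vs C57BL/6 Pvalb nuclei, 2089 genes had enough counts and 10.0% were past 2-fold. Of the 2089, 151 (7.23%) were at least 2-fold higher in BTBR and 58 (2.78%) lower, with a median ratio of 1.07. With both pools at equal depth the split was 75 higher and 76 lower of 1387. The interval excluded 1 in 316 of the 2089 genes, and 30 of the 2089 were past 2-fold in all other kept nuclei. Of the 209 past 2-fold in Pvalb nuclei, 21 were so in the same direction there, and 175 lay on the same side of 1. Here too the share over all 2089 genes was not computed, so the 175 has no background. This comparison and the one with *Nav1* KO share the C57BL/6 pool, so a low or high value in that pool enters both, as for *Atxn7l3b*, which had 5 UMIs in C57BL/6, 30 in *Nav1* KO and 37 in BTBR.

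The 8 largest ratios in BTBR were those of *C130073E24Rik*, *Lsm4*, *Ccdc28a*, *Clcn6*, *Scg5*, *Srebf2*, *Atxn7l3b* and *P4htm*. *Lsm4*, a protein of RNA splicing and decay, had 35 vs 2 UMIs in Pvalb nuclei and was 18.8 times higher in all other BTBR nuclei. *Scg5*, a secretory granule protein, was at 489 vs 84.8 CPM (5.76, 3.17 to 11.5), found in 42 of 59 BTBR nuclei and 9 of 47 C57BL/6 nuclei, and it was 2.94 times higher in all other nuclei. *Clcn6*, a chloride transporter of endosomes, was at 122 vs 21.2 CPM and 3.43 times higher elsewhere. *Srebf2*, a regulator of sterol synthesis, was at 118 vs 21.2 CPM and at 1.16 elsewhere. These 4 genes had 2 to 12 UMIs in C57BL/6 and were compared through BTBR, where they are high.

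The 8 smallest were *Hjurp*, *AC149090.1*, *Luzp2*, *Gabarapl2*, *Gm15594*, *Ints6*, *Zbtb11* and *Nav1*. *AC149090.1* was at 222 vs 1258 CPM (0.176, 0.126 to 0.243), and at 0.238 elsewhere. *Gabarapl2*, an autophagy protein, was at 36.2 vs 156 CPM (0.233) and at 0.212 elsewhere. *Hjurp*, a histone chaperone of the centromere, was at 18.1 vs 156 CPM (0.116) and at 0.364 elsewhere. *Luzp2* was at 36.2 vs 163 CPM (0.223) and at 1.55 elsewhere. *AC149090.1*, *Gabarapl2* and *Hjurp* were thus lower in all other BTBR nuclei as well, and *Luzp2* was higher there.

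Among the 9 marker genes outside the selection, *Kcnc1* was lower in BTBR, at 851 vs 1223 CPM (0.696, 0.563 to 0.86). *Btbd11* was at 136 vs 233 (0.582, 0.343 to 0.984), and both were within 2-fold. *Sox6* (122 vs 240 CPM), *Syt2* (95 vs 127) and *Erbb4* (303 vs 361) were also lower, and *Lhx6* (63.4 vs 28.3) was higher. For each of these last genes the intervals of the levels overlapped between the libraries. *Tac1* was higher too, and *Kcnmb2* and *Acan*, both sparse, were lower. The order of *Kcnc1* between BTBR and C57BL/6 turned with the nuclei taken, to 1600 vs 842 CPM after thinning to 1000 UMIs and to 1413 vs 1320 CPM with at least 1 *Lhx6* UMI. *Satb1* was at 131 vs 269 CPM (0.489, 0.291 to 0.813). *Kcns3*, a modulatory potassium channel subunit of parvalbumin cells, had 13 UMIs in C57BL/6, 6 in *Nav1* KO and 0 in BTBR, where 3 counts would be 13.6 CPM. It had 3 UMIs in the *Sst* and 0 in the *Vip* nuclei of BTBR, and 14 and 1 in those of C57BL/6. Of 20 channel genes 1 was at least 2-fold higher in BTBR (*Scn3a*) and none lower, and none of 12 genes of fast GABA release passed 2-fold, where 7.23% of all genes were higher and 2.78% lower. *Slc25a4*, the mitochondrial carrier of ADP and ATP, was lower, at 0.48 (0.289 to 0.79), as 1 of 8 energy genes compared. *Tnr*, tenascin-R of the perineuronal net, was lower, at 0.445 (0.22 to 0.88), as 1 of 3 net genes compared. Of 8 GABA receptor genes 1, *Gabra2*, was at least 2-fold higher, as was 1 of 3 subtype genes, *Cpne5*. *Meis2* was 2.71 times (1.67 to 4.6) the C57BL/6 level, against 1.27 in all other kept nuclei.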

How the data were processed

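The authors deposited, for each of the 3 libraries, a filtered matrix holding UMI counts for every gene in each barcode, made with Cell Ranger 6.0.0 and the mm10 reference, per the submitters' processing notes. Whether intronic reads and strand were used is not given in the sources used here. The values are whole counts. The matrices held 15402, 14623 and 15238 barcodes (C57BL/6, *Nav1* KO and BTBR), of which 14630, 14056 and 14778 were kept. The stated numbers for the first 2 libraries equal the kept nuclei, and that for BTBR equals the barcodes. The kept nuclei held 38704723, 50965774 and 48948184 counts.

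For each class, the summed count of a gene was divided by the class total (CPM). Levels have exact Poisson intervals, shares exact Clopper-Pearson intervals, and ratios exact intervals from the binomial split, at 95%, for counting error only. For ranking and for calls past 2-fold, counts under 3 were set to 3. Genes were named by rule: the listed genes, the 12 largest and 12 smallest ratios over *Sst* nuclei, ranked by the least extreme library, and the 8 largest and 8 smallest of each library comparison. A few genes outside the rule were chosen after their values were seen (*Ntrk3*, *Kcnj3* and *Plxna4*). The nuclei and lists were chosen with earlier results of these data known. The ratio step was tested on simulated data. Sequences are from RefSeq and positions from GENCODE vM21. Tables were computed with pandas 2.3.3 and scipy 1.17.1 on numpy 2.4.6 (Python 3.11.15), and figures with matplotlib 3.10.9. Results for some genes that the rule names are not reported here.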

Additional observations from a re-analysis of the deposited data

Results flagged for a closer look

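The genes here were picked out because the interval of a ratio lay wholly above 1 in one library or class and wholly below 1 in another, with at least 20 counts on 1 side of every ratio. The differences between ratios were not tested. *Cdh7*, a cadherin, had a ratio of Pvalb over *Sst* nuclei of 1.8 in C57BL/6, 0.376 in *Nav1* KO and 1.65 in BTBR, and its *Nav1* KO over C57BL/6 ratio was 0.331 in Pvalb and 1.59 in *Sst* nuclei. *Grip1*, a scaffold of AMPA receptors, had Pvalb over *Sst* ratios of 1.85, 0.477 and 1.21 in the same order of libraries, and *Nav1* KO over C57BL/6 ratios of 0.389 in Pvalb and 1.51 in *Sst* nuclei. *Luzp2* had Pvalb over *Sst* ratios of 1.97, 0.699 and 0.333, *Pde10a*, a phosphodiesterase abundant in striatal neurons, of 0.692, 1.33 and 0.918, and *Gria3*, an AMPA receptor subunit, of 0.941, 0.731 and 1.19.

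In *Nav1* KO over C57BL/6, *Tac1* had a ratio of 2.32 in Pvalb and 0.455 in *Sst* nuclei, *Npy* of 2.26 and 0.848, and *Ralyl* of 4.85 and 0.717. In BTBR over C57BL/6, *Scn3a* had a ratio of 2.11 in Pvalb and 0.718 in *Sst* nuclei, and *Zbtb11* of 0.288 and 1.69.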

How the results depend on the processing

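No paired analysis was possible because each strain or genotype had 1 library. With at least 2 *Pvalb* UMIs (6, 9 and 9 nuclei in C57BL/6, *Nav1* KO and BTBR) the *Nav1* KO share over C57BL/6 was 1.56 of kept and 1.51 of GABA nuclei. Against *Sst* nuclei 48 of 4438 genes were past 2-fold (33 higher and 15 lower). Over C57BL/6 14 of 88 genes were past 2-fold in *Nav1* KO and 26 of 130 in BTBR. Under the rule as stated these counts were 163 of 4445, 141 of 1520 and 209 of 2089. With at least 1 *Lhx6* UMI (4, 4 and 13 nuclei) the BTBR share was 3.22 and 2.69 times that of C57BL/6. The 3 gene counts were then 65 of 4438 (54 higher and 11 lower), 4 of 31 and 21 of 183. With no *Slc17a7* and no *Sst* UMI 127 of 906 genes were past 2-fold in BTBR. Thinning to 1000 UMIs (first draw) gave share ratios of 0.402 and 0.762 among kept and 0.376 and 0.579 among GABA nuclei for *Nav1* KO and BTBR. It also gave a *Nav1* ratio of 1.78 in *Nav1* KO from 6 and 8 UMIs, and gene counts of 6 of 462, 4 of 41 and 6 of 45. A minimum of 50 counts gave 81, 14 and 24 genes, and 3-fold gave 37, 31 and 51. With equal depth, chosen after the data were seen as were the other two draws, 71 genes were past 2-fold against *Sst* nuclei. Apart from 3-fold, which changed the threshold alone, fewer nuclei, genes or counts entered in these settings. The order of 9 gene levels between *Nav1* KO or BTBR and C57BL/6 (18 pairs) turned in 9 pairs with an *Lhx6* UMI, 6 after thinning, 2 with at least 2 *Pvalb* UMIs, 1 with no *Slc17a7* and no *Sst* UMI, and 1 without the 5% of nuclei with the most UMIs. For *Kcnc1* it turned in BTBR after thinning (1600 vs 842 CPM) and with an *Lhx6* UMI (1413 vs 1320), and in *Nav1* KO in those settings, with at least 2 *Pvalb* UMIs (1784 vs 1502) and without the deepest nuclei (1236 vs 1223). The others were *Cemip* and *Sox6* in both libraries, *6330411D24Rik*, *Btbd11* and *Nav1* in *Nav1* KO, *Syt2* in BTBR and *Lhx6* in both. The cause was not tested. Depth is a limit, since 127 of 151 nuclei rest on 1 *Pvalb* UMI, and each strain or genotype has 1 library.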
